A study of Mus musculus with 12 samples.

Results

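Genes usually read as marks of the atrial heart muscle cell were chosen here by symbol: Nr2f1, Nr2f2, Myl4, Myl7, Sln, Pam, Kcnj3, Kcnj5, Stard10 and Dkk3. All 10 were found among the 25239 genes of each of the 2 count tables of a mouse study of the histone chaperone subunit Chaf1a. The study sequenced total RNA from cultured heart cardiomyocytes in 12 libraries, 3 in each of 4 groups: Ctrl and Chaf1a cko, and the same pair again with 3M in the name. The knockout groups carry Myh6-Cre and both floxed Chaf1a alleles (Chaf1a f/f), and the control groups carry Chaf1a f/f, with no Cre named for them. Presence of Cre and loss of Chaf1a therefore cannot be told apart. The Myh6 promoter drives Cre in heart muscle cells of both atria and ventricles. The labels give no strain, age or pooling of animals, and they do not spell out 3M. Nor do they say whether libraries of a group were separate animals or separate cultures. The p-values thus measure only the spread between libraries, which may be technical. The 6 libraries without 3M in their names are called the first set, and each set was analysed within its own table.

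Atrial and ventricular cardiomyocytes share most of their contractile machinery but use different isoforms of several parts of it. The nuclear receptors Nr2f1 and Nr2f2 (also called COUP-TFI and COUP-TFII) are transcription factors, and Nr2f2 is known to maintain atrial identity in mouse heart. Myl7 and Myl4 encode the atrial regulatory and essential myosin light chains, whose ventricular counterparts are Myl2 and Myl3, and Sln encodes sarcolipin, a small inhibitor of the calcium pump of the sarcoplasmic reticulum. Kcnj3 and Kcnj5 encode the GIRK1 and GIRK4 subunits of the potassium channel that acetylcholine opens in atrial cells. Pam encodes an enzyme that amidates peptides and is an abundant membrane protein of atrial secretory granules. Stard10 encodes a lipid carrier with a START domain, and Dkk3 encodes a secreted glycoprotein of the Dickkopf family.

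Nr2f1 and Nr2f2 are paralogs whose coding sequences (GENCODE M21 transcripts) are 83.2% identical over 1230 aligned bases. Coding bases 202 to 320 of Nr2f1 and 190 to 308 of Nr2f2 are shown because they hold the longest identical run of the pair, 59 bases in capitals, at the start of the stretch for the zinc-finger DNA-binding domain.
Nr2f1: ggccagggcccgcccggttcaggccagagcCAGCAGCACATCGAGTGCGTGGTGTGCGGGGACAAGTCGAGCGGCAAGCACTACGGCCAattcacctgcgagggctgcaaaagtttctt
Nr2f2: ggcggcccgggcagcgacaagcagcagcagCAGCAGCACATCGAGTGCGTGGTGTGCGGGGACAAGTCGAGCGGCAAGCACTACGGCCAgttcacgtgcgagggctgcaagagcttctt
The pair shares 10 stretches of 50 bases, so a read of that length from there could come from either gene. The whole coding sequence of Sln, 96 bases, is shown with its start and stop codons in capitals because Sln had the lowest fold change of the set.
Sln: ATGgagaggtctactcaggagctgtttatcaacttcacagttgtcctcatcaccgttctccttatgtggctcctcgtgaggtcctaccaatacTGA
The other close pairs share no stretch of 50 bases: Myl4 and Myl3 are 78.1% identical, Myl7 and Myl2 64.7%, and Kcnj3 and Kcnj5 66.9%. In GENCODE M21, exons of a gene on the opposite strand cover 31.1% of the exon bases of Kcnj3, 7.46% of Nr2f2, 2.42% of Nr2f1 and 0.0647% of Myl4, and a gene on the same strand covers 1.58% of Pam. No source used here gives the strand setting of the counting, so reads inside the opposite-strand stretches cannot be told apart from reads of the overlapping gene. For the same-strand stretch of Pam, no strand setting would separate them. Exon bases outside these stretches have no such overlap in GENCODE M21.

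The 10 genes lie on 6 chromosomes of the mouse assembly GRCm38.p6 (mm10 is its browser name), at positions taken from RefSeq. Nr2f2 (Entrez 11819) spans chr7:70351946-70366746 on the minus strand, and Stard10 (56018, chr7:101317086-101346626, plus) and Dkk3 (50781, chr7:112116019-112159482, minus) lie on the same chromosome. Myl7 (17898) spans chr11:5896637-5898782 on the minus strand, and Myl4 (17896) spans chr11:104546017-104587215 on the plus strand. Sln (66402) lies at chr9:53850251-53853849 on the plus strand and Kcnj5 (16521) at chr9:32314706-32344380 on the minus strand. Nr2f1 (13865) is at chr13:78188971-78198873 on the minus strand, Pam (18484) at chr1:97821091-98095853 on the minus strand, and Kcnj3 (16519) at chr2:55411798-55598145 on the plus strand. All values of these genes below count reads over the whole gene as deposited.

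In the first set, 7 of the 10 atrial genes were lower in the libraries labelled Chaf1a cko than in Ctrl and 0 were higher, by the quasi-likelihood test of edgeR (Benjamini-Hochberg adjusted p under 0.05 over all 22965 genes tested). The background share was 0.435% of tested genes called lower and 0.74% called higher, 1.18% in all, and 10.1% had an unadjusted p under 0.05. The 10 genes were chosen with earlier results of these data known. Their count beside these shares is thus a description and no independent support. The called genes were Nr2f2, Myl4, Myl7, Sln, Pam, Kcnj3 and Dkk3, and those not called were Nr2f1, Kcnj5 and Stard10. The fitted log2 fold changes of the 10 genes were all below 0, with a median of -0.77 and a range of -1.83 to -0.09, beside a median of -0.01 and 50.9% below 0 over all tested genes. In 8 of the 10 genes every Chaf1a cko library was below every Ctrl library, which was so for 7.85% of all tested genes, and in 0 the reverse, which was so for 8.33%. Levels are CPM, which are counts relative to library size, scaled by edgeR's TMM factors, and each fold change is Chaf1a cko over Ctrl. In bulk RNA, fewer cells of a type and less RNA per cell cannot be told apart.

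**Figure D1:**
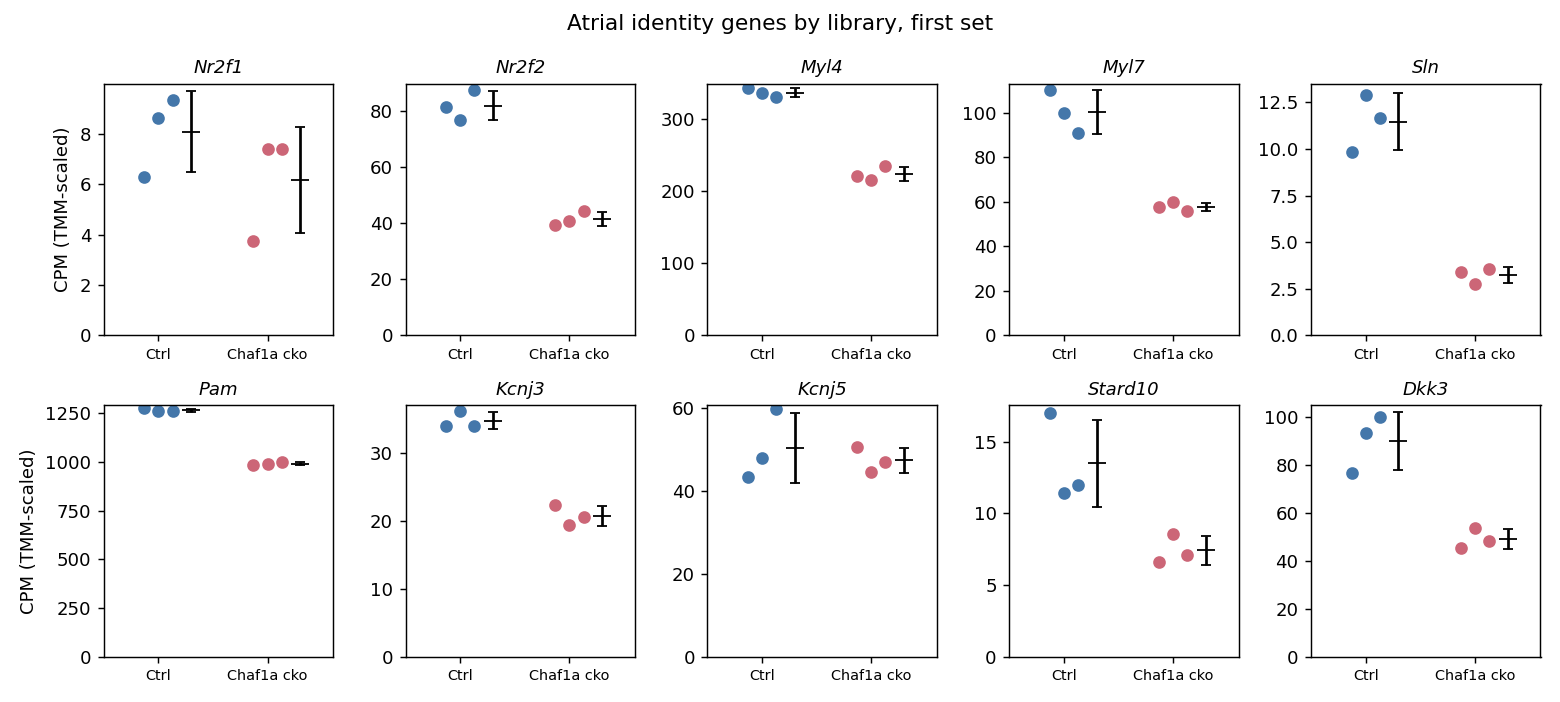
Levels of the 10 atrial genes in the first set, in TMM-scaled CPM on the vertical axis from 0, with 1 point per library (3 Ctrl, 3 Chaf1a cko) and bars for mean ± SD. The 2 groups are apart in 8 panels and overlap in Nr2f1 and Kcnj5.

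Total counts ran from 15068468 to 20896673 in the first set and from 10569325 to 16445963 in the 3M set. Chaf1a, the gene targeted, showed no lower level under the knockout label: it ran from 18.8 to 32.3 CPM in Ctrl and from 22.0 to 29.0 CPM in Chaf1a cko (log2 fold change 0.03, SE 0.18, edgeR adjusted p 0.981), and it was 0.25 (SE 0.61, edgeR adjusted p 0.952) in the 3M set. Counts over a whole gene need not fall where only some of its exons are removed, and no label names the floxed ones. Summed over 4 Y-linked genes, levels were 50.05 to 61.1 CPM in Ctrl and 115 to 133.99 CPM in Chaf1a cko, so Y-linked reads moved with the groups of the first set, and the part of any difference in the mix of sexes was not tested. In the 3M set the same sum was 393 to 646 CPM in Ctrl 3M and 355 to 394 CPM in Chaf1a cko 3M, with overlapping ranges. Among 1527 chemoreceptor genes, taken as mostly silent in heart, 94.8% to 97.5% had counts in the first-set libraries, with a 95th percentile of 5.32 CPM for their mean level, against 1.18% to 1.64% with counts in the 3M libraries.

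Among the transcription factors, Nr2f2 was at 81.4, 77.0 and 87.4 CPM in the Ctrl libraries and at 39.2, 40.8 and 44.2 CPM in the Chaf1a cko libraries. All 3 Chaf1a cko libraries lay well below the lowest Ctrl library. The fitted log2 fold change was -0.98 (SE 0.10, 95% interval -1.18 to -0.78, n = 3 per group, edgeR adjusted p 1.13e-05). Its paralog Nr2f1 was at 6.29, 8.64 and 9.36 CPM in Ctrl and at 3.73, 7.39 and 7.40 CPM in Chaf1a cko. The groups of Nr2f1 overlapped, its values were close to the chemoreceptor background of 5.32 CPM, and its change did not pass (-0.39, SE 0.29, interval -0.999 to 0.22, edgeR adjusted p 0.736). Nr2f6, the third mouse member of the family, was at 22.4 ± 4.49 and 23.5 ± 1.28 CPM (SD, n = 3) and did not pass either (log2 fold change 0.07, edgeR adjusted p 0.940). Of 10 genes of the Nr2f family and its cofactors, Nr2f2 alone was called. Nr2f2 is also a mark of venous and lymphatic endothelium. Of 10 marker genes of those vessels 0 were called higher or lower, and their summed level was 991 to 1026 CPM in Ctrl and 961 to 999.8 CPM in Chaf1a cko, with overlapping ranges. Marker sums of some other cell types differed between the groups in both directions, as given below. The part of any cell type in the level of Nr2f2 was not tested.

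Both atrial myosin light chains were lower. Myl4 was at 342, 335 and 330 CPM in Ctrl and at 221, 215 and 234 CPM in Chaf1a cko, with a gap between the groups several times the spread within them. Its log2 fold change was -0.59 (SE 0.05, interval -0.70 to -0.48, edgeR adjusted p 4.16e-06). Myl7 was at 110, 99.9 and 91.0 CPM in Ctrl and at 57.7, 59.7 and 56.0 CPM in Chaf1a cko, again without overlap. It changed by -0.80 (SE 0.09, interval -0.98 to -0.61, edgeR adjusted p 4.54e-05). The ventricular counterparts went the other way or did not pass: Myl3 rose from 1823 ± 43.7 to 1987 ± 16.6 CPM (SD, n = 3, log2 fold change 0.12, SE 0.03, edgeR adjusted p 0.0295), and Myl2 was at 2270 ± 60.8 and 2423 ± 16.2 CPM (0.09, SE 0.03, edgeR adjusted p 0.122). Of 12 myosin light chain genes tested, Myl4 and Myl7 were called lower and Myl3 higher, and the list's median was 0.06.

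Pairs of counterparts within 1 library do not depend on the scaling of that library. These ratios were chosen after the values were seen and carry no test. Per 100 counts of Myl2 there were 4.73, 4.42 and 4.11 counts of Myl7 in Ctrl and 2.40, 2.47 and 2.29 in Chaf1a cko. Per 100 counts of Myl3 there were 18.3, 18.7 and 18.3 counts of Myl4 in Ctrl and 11.1, 10.9 and 11.8 in Chaf1a cko. Neither ratio overlapped between the groups: both were lower in every Chaf1a cko library than in every Ctrl library. Whether these ratios follow the share of atrial cells was not tested. Myl7 per 100 counts of Myl4 was 32.3, 29.8 and 27.6 in Ctrl and 26.1, 27.8 and 23.9 in Chaf1a cko, and here the groups overlapped.

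Sln showed the lowest fold change of the 10 genes. It was at 9.84, 12.9 and 11.7 CPM in Ctrl and at 3.37, 2.76 and 3.55 CPM in Chaf1a cko. All 3 Ctrl libraries were above the chemoreceptor background of 5.32 CPM and all 3 Chaf1a cko libraries were below it, so how far Sln itself fell is not resolved beyond that level. The fitted log2 fold change was -1.83 (SE 0.25, interval -2.36 to -1.29, edgeR adjusted p 0.000531). Of 6 tested genes of the calcium pump and its small regulators, Sln and the pump Atp2a2 were called lower and 0 were called higher. Atp2a2 (SERCA2) went from 3494 ± 104 to 2874 ± 74.3 CPM (SD, n = 3), a log2 fold change of -0.28 (SE 0.03, edgeR adjusted p 9.17e-06). Phospholamban (Pln), the regulator abundant in ventricle, was at 643 ± 1.94 and 713 ± 14.4 CPM (0.15, SE 0.04, edgeR adjusted p 0.0598). Counts of Sln per 100 counts of Pln were 1.53, 2.00 and 1.82 in Ctrl and 0.464, 0.386 and 0.510 in Chaf1a cko. Per 100 counts of Myl7 it was at 8.91, 12.9 and 12.8 in Ctrl and at 5.83, 4.63 and 6.34 in Chaf1a cko. Both ratios use Chaf1a cko values of Sln below the background level, so their size in Chaf1a cko is not resolved.

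The 2 subunits of the acetylcholine-activated potassium channel differed. Kcnj3 was at 34.1, 36.2 and 34.0 CPM in Ctrl and at 22.3, 19.4 and 20.6 CPM in Chaf1a cko, without overlap (log2 fold change -0.74, SE 0.13, interval -1.03 to -0.46, edgeR adjusted p 0.00681). This call depended on single libraries: the edgeR adjusted p was 0.0515 without Ctrl replicate 2 and 0.0537 without Chaf1a cko replicate 2. Kcnj5 was at 43.4, 48.0 and 59.8 CPM in Ctrl and at 50.6, 44.5 and 47.1 CPM in Chaf1a cko, and the groups overlapped (-0.09, SE 0.12, interval -0.34 to 0.16, edgeR adjusted p 0.884). Counts of Kcnj3 per 100 counts of Kcnj5 were 78.5, 75.5 and 56.9 in Ctrl and 44.1, 43.7 and 43.7 in Chaf1a cko. Of 18 other genes of the muscarinic potassium current, which carries the signal from the acetylcholine receptor through G proteins to the channel, 0 were called and the median was 0.07. The most abundant of them, Gnai2 and Gnb1, had log2 fold changes of 0.13 and 0.09. The related channel genes Kcnj2, of the inward rectifier current of ventricle, and Kcnj6, another GIRK subunit, had log2 fold changes of 0.11 (edgeR adjusted p 0.870) and -0.21 (edgeR adjusted p 0.857).

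Pam was the most abundant of the 10 genes in CPM and had the least spread. It was at 1275, 1261 and 1260 CPM in Ctrl and at 983, 988 and 999.9 CPM in Chaf1a cko. The groups were far apart for their spread although the log2 fold change was only -0.35 (SE 0.03, interval -0.42 to -0.29, edgeR adjusted p 3.99e-06). Pam was the 1 gene called of 12 peptide processing genes. Dkk3 was at 76.5, 93.0 and 99.96 CPM in Ctrl and at 45.3, 53.5 and 48.4 CPM in Chaf1a cko, without overlap (-0.87, SE 0.10, interval -1.09 to -0.65, edgeR adjusted p 0.000105). It was the 1 gene called of 10 Wnt inhibitors of the Dkk and Sfrp families, of which Sfrp1, the next most abundant, had a log2 fold change of -0.10. Stard10 was at 17.0, 11.4 and 12.004 CPM in Ctrl and at 6.62, 8.55 and 7.10 CPM in Chaf1a cko. The Chaf1a cko values of Stard10 were above the chemoreceptor background of 5.32 CPM but close to it. Its groups did not overlap, but its log2 fold change of -0.86 (SE 0.23, interval -1.34 to -0.37) missed the threshold (edgeR adjusted p 0.0997). It passed in DESeq2 (adjusted p 0.0171) and when only genes that reached 10 CPM in 3 or more libraries were tested (edgeR adjusted p 0.0316). Only its Ctrl libraries reached 10 CPM, so it entered that last test through the group where it was higher. The result under that filter is therefore no support. Of 11 START domain genes tested 0 were called.

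Levels of different genes were compared per kilobase of merged exon (GENCODE M21). In first-set Ctrl the order was Myl7 at 170, Pam at 106, Myl4 at 72.4, Dkk3 at 26.7, Kcnj5 at 10.8, Nr2f2 at 9.50, Sln at 8.70, Kcnj3 at 6.67, Stard10 at 5.57 and Nr2f1 at 1.59 CPM per kilobase. Neighbours whose libraries overlapped were Kcnj5 with Nr2f2, Nr2f2 with Sln, and Kcnj3 with Stard10. In Chaf1a cko the first 6 places stayed in this order, at 98.0, 83.3, 48.2, 14.6, 10.1 and 4.80 CPM per kilobase. Below them came Kcnj3 at 3.98, Stard10 at 3.07, Sln at 2.45 and Nr2f1 at 1.21. The place of Sln among these is not resolved, since its level in Chaf1a cko lay below the chemoreceptor background in CPM. That background was not worked out per kilobase, so which other low places of either order lie near it is not known. The annotation that gave the exon lengths may differ from that used for counting, which could shift a gene's place but not its ratio between groups.

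The other atrial genes did not move as 1 group. Of 19 tested genes of a list of 20 other atrial genes, 2 were called lower and 1 higher, and the median log2 fold change was -0.09. The log2 fold change was below 0 in 13 of the 19, beside 50.9% of all tested genes. In 6 of the 19 every Chaf1a cko library was below every Ctrl library, beside 7.85% of all tested genes. In 1, Nppa, every Chaf1a cko library was above, beside 8.33%. Cacna2d2, a calcium channel subunit, was at 21.7, 21.5 and 30.5 CPM in Ctrl and at 8.06, 10.1 and 11.8 CPM in Chaf1a cko (-1.29, SE 0.20, edgeR adjusted p 0.00153). Fgf12, a regulator of sodium channels, went from 19.2 ± 2.98 to 9.02 ± 2.39 CPM (SD, n = 3, -1.09, SE 0.22, edgeR adjusted p 0.0165). Nppa, the gene of atrial natriuretic peptide, which ventricular cells also make before birth and under load, went the other way, from 779 ± 23.8 to 1174 ± 39.0 CPM (SD, n = 3, 0.59, SE 0.04, edgeR adjusted p 1.15e-07). Summed over the 20 genes, levels were 1374 to 1458 CPM in Ctrl and 1729 to 1778 CPM in Chaf1a cko, and Nppa made up 61.8% of that sum. Summed over the 10 members, levels were 1983 to 1996 CPM in Ctrl and 1433 to 1469 CPM in Chaf1a cko, with Pam as 65.6% of the sum. The 2 sums therefore differed in opposite directions, each led by 1 gene, and Nppa was the 1 gene of its list called higher.

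Of 20 ventricular genes tested, 4 were called higher and 0 lower, with a median of 0.11. These were Myl3 with a log2 fold change of 0.12, the slow myosin heavy chain Myh7 with 0.21, the transcriptional repressor Hey2 with 0.48 and the transcription cofactor Lbh with 0.29. Summed over all 20 ventricular genes, levels were 20952 to 22253 CPM in Ctrl and 24327 to 24567 CPM in Chaf1a cko, with Myh7 as 72.9% of the sum. Whether the libraries held different amounts of atrial and ventricular tissue was not tested, and no label gives the chamber. Of 13 pacemaker and conduction genes and 18 genes of retinoic acid signalling, a pathway known to pattern the atria, 0 were called in either direction, with medians of -0.16 and -0.19. Rara and Rxra, the most abundant retinoic acid genes, had log2 fold changes of 0.02 and -0.05, and Cacna1g and Tbx3, the most abundant pacemaker genes, had -0.14 and -0.10.

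**Figure D2:**
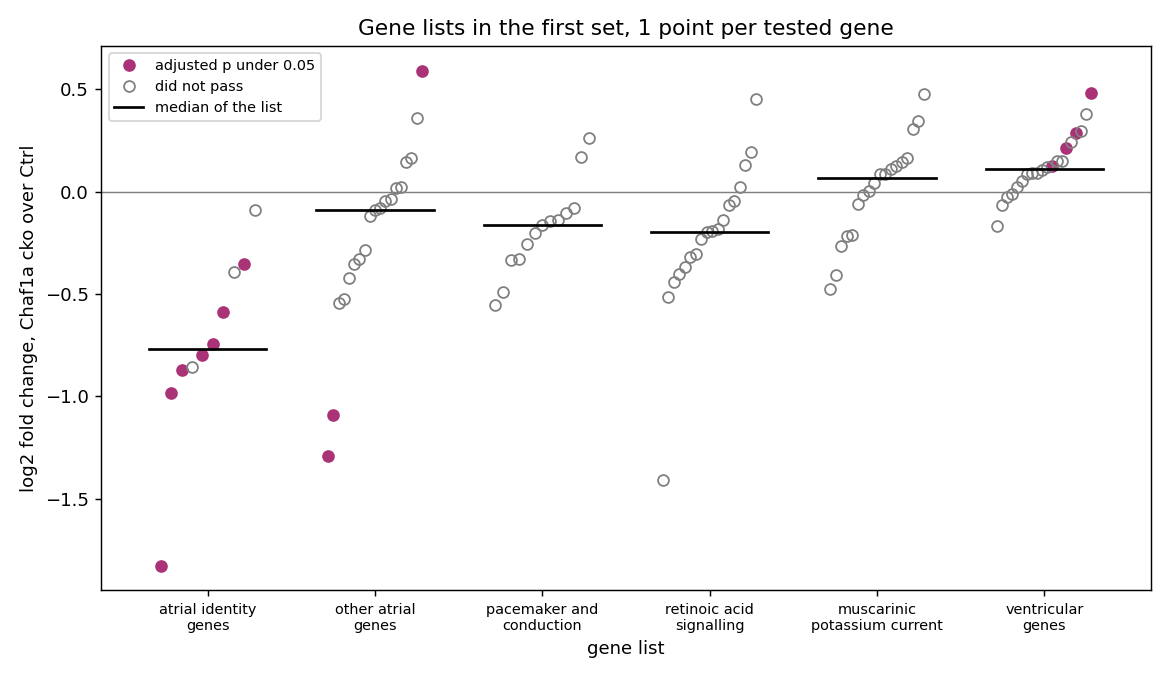
Fitted log2 fold change of Chaf1a cko over Ctrl in the first set (vertical axis), 1 point per tested gene in 6 gene lists, filled where the edgeR adjusted p was under 0.05, with a line at each list's median. The members' median of -0.77 lies below the medians of the other 5 lists, which run from -0.19 to 0.11. All 6 lists were chosen with earlier results of these data known.

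Markers of other cells moved with the first-set groups in part. Of 12 fibroblast markers 5 were called lower and 0 higher, among them Col1a1 (-0.39), Dcn (-0.65) and Lum (-0.73), and the summed level was 3836 to 3945 CPM in Ctrl and 3216 to 3253 CPM in Chaf1a cko. Of 12 markers shared by all cardiomyocytes 2 were called higher and 4 lower, with sums of 96382 to 99719 and 91008 to 91671 CPM. Mural and smooth muscle markers summed to 1287 to 1363 and 1602 to 1617 CPM, with Acta2 as 49.1% of it, and 2 of 10 were called higher and 1 lower. Endocardial markers summed to 409 to 429 and 434 to 465 CPM, with 0 of 6 called. Endothelial, epicardial, macrophage, Schwann cell and skeletal muscle sums overlapped. The part of these cell markers in the lower atrial genes was not tested. The members' sum in Chaf1a cko was 0.727 of that in Ctrl, the fibroblast sum 0.830 and the cardiomyocyte sum 0.935.

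**Figure D3:**
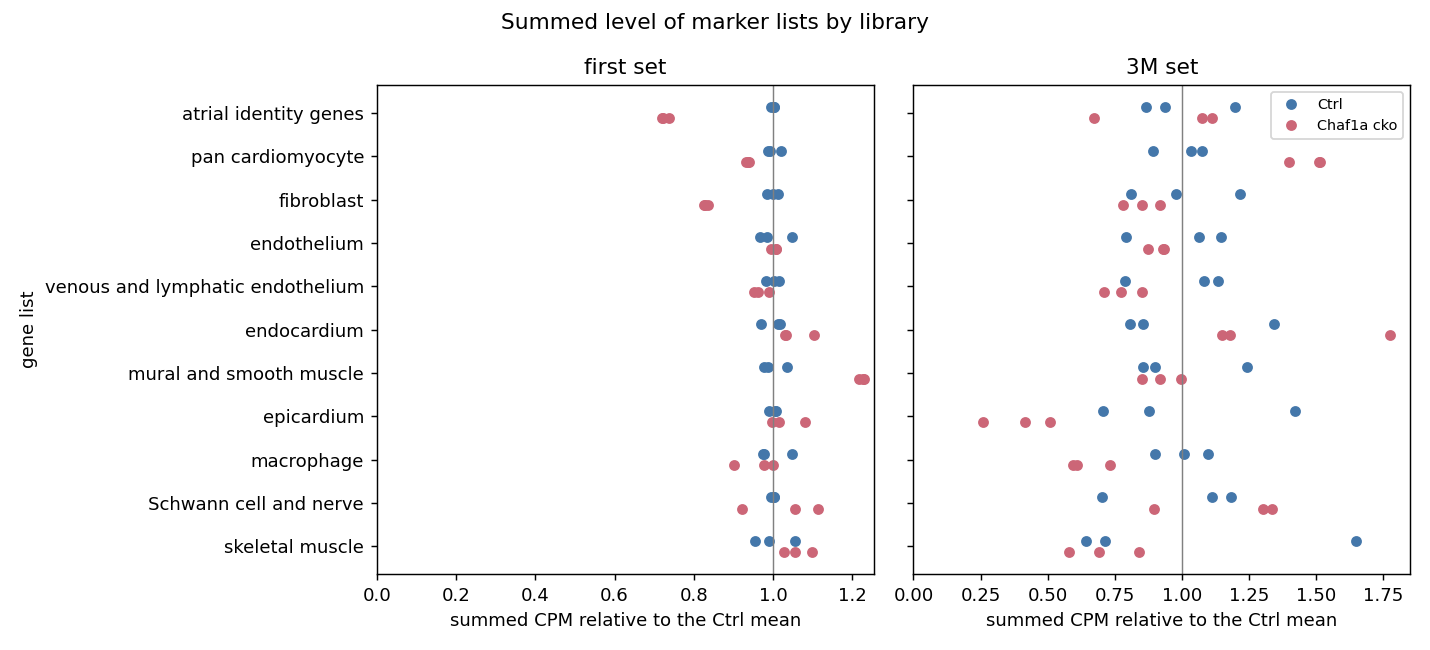
Summed CPM of each marker list relative to the Ctrl mean of the same set (horizontal axis), 1 point per library, first set on the left and 3M set on the right. In the first set the atrial, cardiomyocyte and fibroblast sums of the Chaf1a cko libraries are below all Ctrl libraries, while in the 3M set the atrial sums overlap and the cardiomyocyte sums are higher in Chaf1a cko.

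In the 3M set the atrial name of the genes held only in part. Defining genes were at or near 0: Myl7 had 0, 0 and 5 counts in the Ctrl 3M libraries and 0 in all 3 Chaf1a cko 3M libraries, and Sln had 8, 0 and 0 counts and again 0 in all 3. A count of 0 allows a level of up to 0.178 to 0.281 CPM (3 counts of the library), for counting error only. Both genes were too low to test and get no fold. Of the other atrial genes, Bmp10 and Mybphl were at 0 in all 6 libraries. Myl4 was at 5.91, 0.414 and 4.40 CPM in the Ctrl 3M libraries, against 4.59, 1.16 and 2.80 CPM in the Chaf1a cko 3M libraries. Counts of Myl4 per 100 counts of Myl3 ran from 0.0265 to 0.338 over these 6 libraries.

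None of the 8 atrial genes tested in the 3M set was called by edgeR in either direction, beside 0.0144% of the 13925 genes tested (2 genes, 0.00718% lower and 0.00718% higher). Their median log2 fold change was -0.14, and 6 of the 8 values were below 0, beside 52% of all genes. DESeq2 also called 0 of the 8. At an unadjusted edgeR p under 0.05 there was 1 of 8, Kcnj5, beside 6.93% of all tested genes. Kcnj5 was at 9.38, 10.2 and 10.8 CPM in the Ctrl 3M libraries, against 17.1, 19.4 and 14.5 CPM in the Chaf1a cko 3M libraries. Its groups did not overlap, as for 7.21% of all genes in this direction, while 0 of the 8 were apart in the other direction, beside 6.89%, and its log2 fold change was 0.75 (SE 0.29, interval 0.10 to 1.39, edgeR p 0.0287, adjusted p 0.704). Stard10 was at 8.07, 7.93 and 10.9 CPM in the Ctrl 3M libraries, against 18.9, 9.56 and 13.8 CPM in the Chaf1a cko 3M libraries, with overlap (0.65, SE 0.36, interval -0.17 to 1.47, edgeR adjusted p 0.760).

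For the other 6 tested genes the spread within a 3M group was as wide as, or wider than, any gap between groups. Nr2f2 was at 98.3, 20.9 and 8.23 CPM in the Ctrl 3M libraries, against 35.6, 8.92 and 44.6 CPM in the Chaf1a cko 3M libraries. Its log2 fold change was -0.51, with an interval of -3.17 to 2.15 (edgeR adjusted p 0.940) that includes the -0.98 of the first set as well as 0. Without Ctrl 3M replicate 1 the value turned to 1.02. Nr2f1 was at 1.03, 17.6 and 16.1 CPM and at 7.87, 9.63 and 5.54 CPM (-0.60, SE 0.85, edgeR adjusted p 0.908), so that the library highest in Nr2f2 was the lowest in Nr2f1. Kcnj3 was at 11.6, 37.6 and 33.6 CPM and at 39.6, 10.2 and 25.4 CPM (-0.15, SE 0.58, edgeR adjusted p 0.976). The interval of Pam was the narrowest of the 8: at 155, 116 and 138 CPM and at 139, 103 and 159 CPM, it had a log2 fold change of -0.03 (SE 0.22, interval -0.54 to 0.48, edgeR adjusted p 0.988). That interval includes the first-set value of -0.35. Dkk3 was at 3.85, 2.25 and 7.83 CPM and at 1.4997, 3.40 and 7.70 CPM (-0.14, SE 0.74, edgeR adjusted p 0.981), and Myl4 had a log2 fold change of -0.32 (SE 0.97, edgeR adjusted p 0.963).

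**Figure D4:**
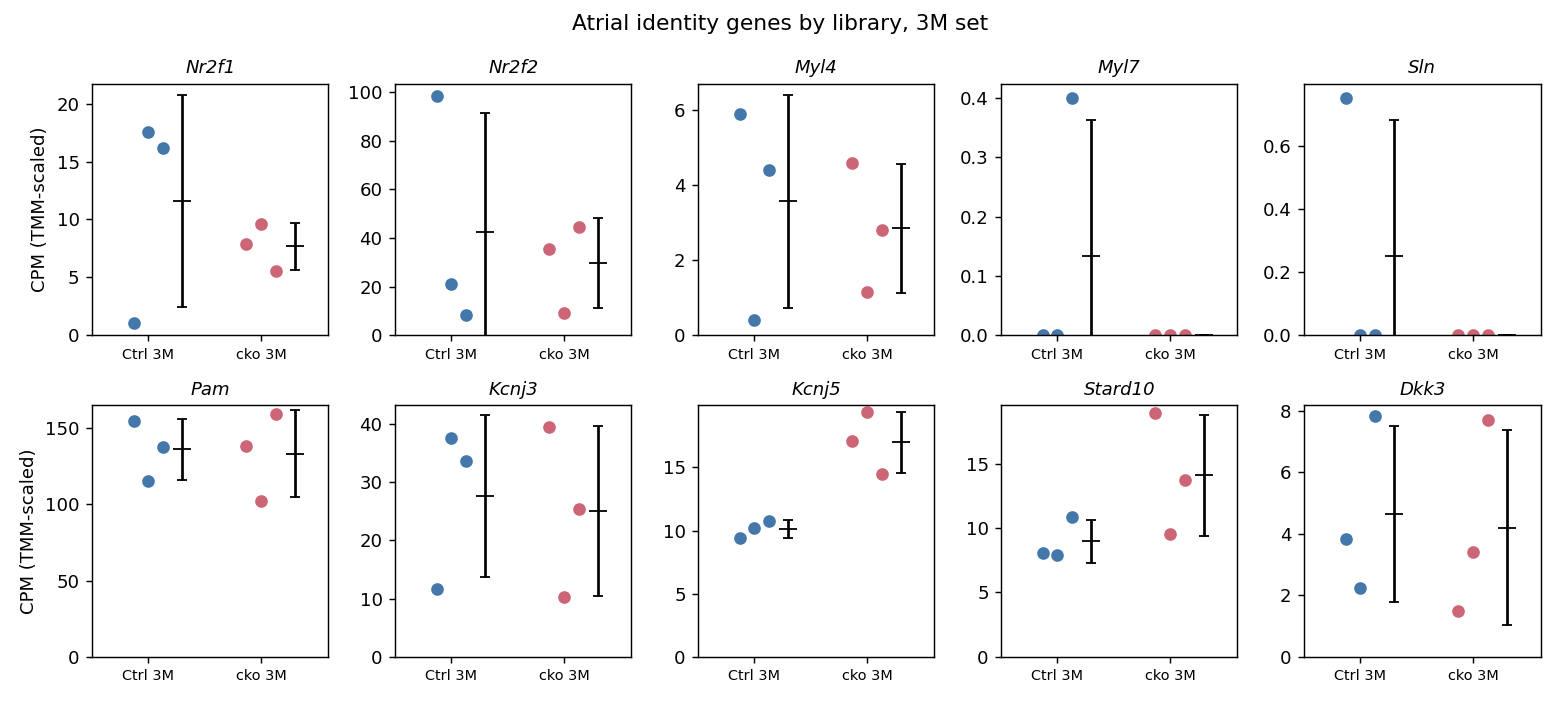
Levels of the 10 atrial genes in the 3M set, in TMM-scaled CPM on the vertical axis from 0, with 1 point per library (3 Ctrl 3M, 3 Chaf1a cko 3M) and bars for mean ± SD, drawn from 0 up. The groups are apart only in Kcnj5, and Myl7 and Sln have counts in 1 library each.

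Per kilobase of exon the order in Ctrl 3M was led by Pam at 11.5 CPM per kilobase, followed by Kcnj3 at 5.30, Nr2f2 at 4.93, Stard10 at 3.70, Nr2f1 at 2.28, Kcnj5 at 2.16, Dkk3 at 1.38 and Myl4 at 0.771. All neighbours below Pam in this order overlapped between libraries. In Chaf1a cko 3M the values were 11.2 for Pam, 5.82 for Stard10, 4.80 for Kcnj3, 3.63 for Kcnj5, 3.44 for Nr2f2, 1.51 for Nr2f1, 1.25 for Dkk3 and 0.615 for Myl4 CPM per kilobase. The gene lists beside the members had 0 calls in the 3M set. Cardiomyocyte markers summed to 29211 to 35110 CPM in Ctrl 3M and 45736 to 49554 CPM in Chaf1a cko 3M, while epicardial markers were at 73.1 to 147 and 26.7 to 52.8 CPM and macrophage markers at 441 to 538 and 292 to 359 CPM. The part of these in the values of Kcnj5 and the other members was not tested.

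Whether the effect differed between the sets was asked of each of the 8 members tested in the 3M set, as the interaction of set and genotype in 1 edgeR fit of all 12 libraries. None of the 8 was called, beside 0.0658% of 22803 genes. The difference (3M minus first set, log2) was 1.55 for Stard10 (SE 0.42, interval 0.63 to 2.46, edgeR p 0.00329, adjusted p 0.340) and 0.87 for Kcnj5 (SE 0.24, interval 0.34 to 1.40, edgeR p 0.00384, adjusted p 0.358), the 2 members with an unadjusted p under 0.05. DESeq2 called both, with adjusted p of 0.0191 and 0.0304. Both fits used 1 spread per gene for the 2 sets. The edgeR SE of the difference was below that of the 3M change alone for Kcnj5 (0.24 against 0.29). The same held for Nr2f2, Pam, Myl4 and Dkk3, so these intervals are likely too narrow and their p-values too low. With a spread per set, limma voom gave adjusted p of 0.337 for Stard10 and 0.593 for Kcnj5. For the other 6 the differences were 0.80 for Dkk3, 0.63 for Kcnj3, 0.51 for Nr2f2, 0.36 for Pam, 0.32 for Myl4 and -0.17 for Nr2f1. Single 3M libraries moved these: the difference was 0.042 for Dkk3 without Chaf1a cko 3M replicate 3, 0.13 for Kcnj3 without Chaf1a cko 3M replicate 1, and 0.02 and 1.97 for Nr2f2 without Ctrl 3M replicates 3 and 1. The interval for Nr2f2 ran from -1.76 to 2.78, which includes 0 as well as the reverse of its first-set change.

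**Figure D5:**
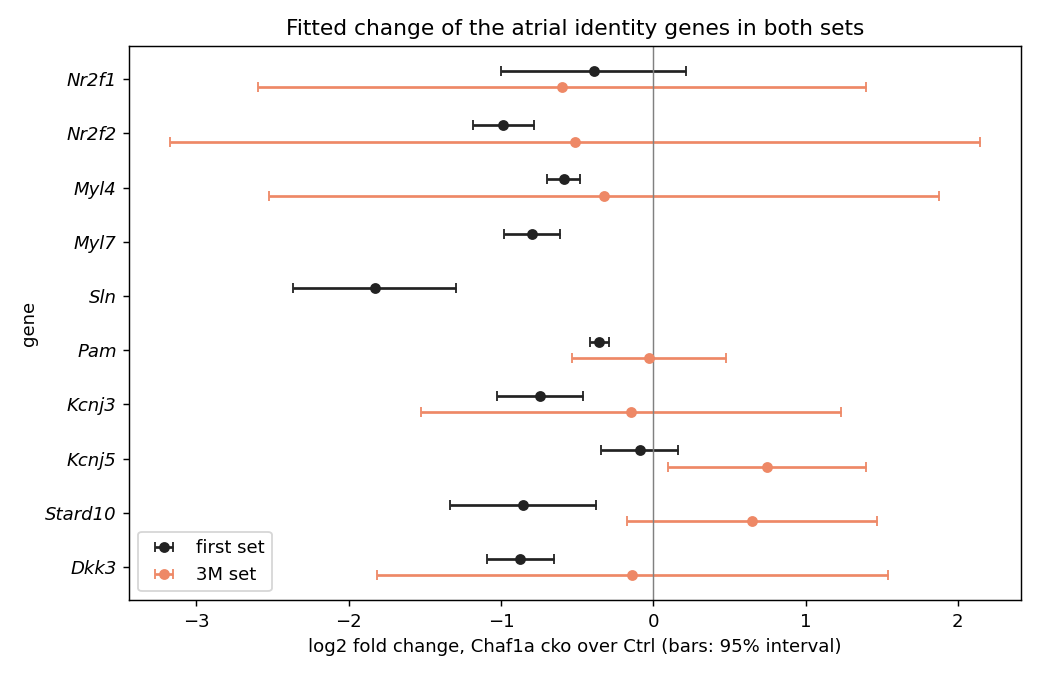
Fitted log2 fold change of Chaf1a cko over Ctrl (horizontal axis) with 95% intervals for each atrial gene in both sets; Myl7 and Sln have no 3M value because they were too low to test. Intervals of the called first-set genes lie below 0, and the 3M intervals are wider and include 0 for all but Kcnj5.

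Promoter sequence was searched because 7 members were lower together. RefSeq windows of 250 bases before a start site (GRCm38.p6) were at hand for 8 of the 10 members, all but Sln and Dkk3. Both strands were searched for the nuclear receptor half-site AGGTCA, the T-box half-site AGGTGT, the GATA site AGATAA, the MEF2 core, the TEAD site CATTCC and the CArG box. Of 32851 promoters of the same length, 14% held the nuclear receptor half-site, 11.8% the T-box half-site, 9.99% the GATA site, 3.2% the MEF2 core, 12.6% the TEAD site and 1.47% the CArG box. Among the 8 members, 0 held the nuclear receptor, GATA or MEF2 letters, 1 (Kcnj3) the T-box half-site, 2 (Myl7 and Stard10) the TEAD site and 1 (Myl7) the CArG box. The windows of the 2 called genes with a match are shown 5′ to 3′ with the matched letters in capitals. For Myl7 (chr11:5898783-5899032, minus strand) these are the TEAD site, which starts 70 bases before the transcription start, and the CArG box, which starts 61 bases before it. For Kcnj3 (chr2:55435720-55435969, plus strand) it is the T-box half-site on the other strand, 38 bases before the start. That window lies inside the span of Kcnj3 given above, so this start is not the outermost one. The window searched for Myl4 and a further window of Nr2f1 also lie inside their gene spans.
Myl7: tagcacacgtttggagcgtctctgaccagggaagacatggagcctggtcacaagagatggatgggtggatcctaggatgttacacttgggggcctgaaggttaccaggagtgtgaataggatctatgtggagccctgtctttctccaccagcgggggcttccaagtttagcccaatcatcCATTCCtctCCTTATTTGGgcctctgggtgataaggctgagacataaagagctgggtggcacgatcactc
Kcnj3: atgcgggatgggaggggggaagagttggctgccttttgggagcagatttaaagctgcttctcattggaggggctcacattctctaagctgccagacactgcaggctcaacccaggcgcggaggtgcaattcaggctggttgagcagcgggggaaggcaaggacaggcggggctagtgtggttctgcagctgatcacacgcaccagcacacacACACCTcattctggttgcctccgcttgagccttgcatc
A match describes the letters of the window, and no binding was measured.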

How the data were processed

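Total RNA of cultured mouse cardiomyocytes was read with a stranded, ribosomal RNA depleted library kit, per the labels' protocols. The authors deposited raw counts per gene symbol in 2 tables of 6 libraries each. Reads were handled with FastQC, Trimmomatic and HISAT2 and the build mm10, per the submitters' processing notes. Which program counted them, with what annotation and strand setting, is not stated in the sources at hand. The members and all gene lists were chosen with earlier results of these data known.

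edgeR 4.0.16 (R 4.3.3) was run on each table separately: filterByExpr (minimum count 10, minimum total 15), TMM scaling, glmQLFit with robust estimation, and the two-sided glmQLFTest of Chaf1a cko against Ctrl, with Benjamini-Hochberg adjustment over all genes tested and a threshold of 0.05. A fit of all 12 libraries gave the interaction of set and genotype. Alternatives were DESeq2 1.42.0, other scalings and filters, no robust estimation, a replicate block, each library left out and, chosen after seeing the data, limma 3.58.1 voom with a spread per set and genes kept in both sets, both for the interaction. Library-to-library spread and counting error both enter the standard errors.

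All 10 members are named. Up to 4 genes of a list are named by smallest p among those called, or by abundance where fewer than 2 are called, with close paralogs for comparison. Genes alike to Nr2f2 are the 5 with the highest Pearson correlation. Sequences were aligned with Biopython 1.88. The fits were tested on simulated data.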

Additional observations from a re-analysis of the deposited data

How the results depend on the processing

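In the first set 7 members were called lower and 0 higher under all 7 alternatives other than leaving out a library. With DESeq2 and with the filter of 10 CPM, however, Stard10 took the place of Sln, which had no adjusted p there. Only the Ctrl libraries of Stard10 reached 10 CPM, so its call under that filter is no support. The count was 6 to 7 lower and 0 higher with each library left out, where Kcnj3 was the gene lost (-0.71 without Ctrl replicate 2 and -0.70 without Chaf1a cko replicate 2). The log2 fold change of Kcnj5 turned to 0.053 without Ctrl replicate 3 (range -0.19 to 0.053). In the 3M set 0 members were called under every alternative run. The signs of uncalled values there turned with single libraries: leaving out each in turn gave -0.91 to 0.47 for Dkk3, -0.64 to 0.23 for Kcnj3, -0.86 to 0.25 for Myl4, -1.005 to 1.02 for Nr2f2 and -0.18 to 0.13 for Pam. It gave -1.14 to -0.17 for Nr2f1 and 0.38 to 0.87 for Stard10 in the 3M set, and -0.54 to -0.14 for Nr2f1 in the first set. With library size alone Pam was at 0.0053. For the difference between the sets DESeq2 called 2 members higher, while edgeR called 0, voom with a spread per set 0 and the fit of genes kept in both sets 0; leaving out each library gave -0.26 to 0.86 for Myl4, -0.75 to 0.27 for Nr2f1, 0.042 to 1.42 for Dkk3, 0.13 to 1.01 for Kcnj3, 0.02 to 1.97 for Nr2f2 and 0.22 to 0.52 for Pam, and voom gave 0.28 for Nr2f1. Replicate numbers did not pair the libraries: the deviations of same-numbered libraries correlated at -0.02, 0.02 and 0.04 in the first set and at -0.01, 0.01 and 0.01 in the 3M set, and not every library correlated best with its own number. With the replicate block 7 members were lower in the first set and 0 were called in the 3M set or between the sets, and the uncalled 3M values of Myl4 and Nr2f1 were 0.083 and -0.088 and the difference of Nr2f1 0.37. The cause of these changes was not tested. Myl7 and Sln have no 3M value here because the main fit did not test them, although the alternative that kept every gene with counts included both. In the first set, the background level of silent genes rather than the count floor limits Sln and Nr2f1, and the Chaf1a cko values of Stard10 lay close to it.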

Other observations

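Over the 12 libraries, with log2 CPM centred within each table, the genes most alike to Nr2f2 among 8978 genes were Arl15, Cped1, Angpt1, Adam10 and Utrn, with Pearson's r of 0.896, 0.886, 0.881, 0.881 and 0.874. Without the 2 libraries farthest from the mean of Nr2f2 in their own set, Ctrl 3M replicates 1 and 3, r was 0.779, 0.754, 0.812, 0.808 and 0.760. Within the first set r was 0.627 for Arl15, 0.906 for Cped1, 0.438 for Angpt1, 0.441 for Adam10 and 0.900 for Utrn. None of the 5 was called by edgeR in either set. The values are a description over libraries that share 2 tables and their depth, the genes were picked as the highest of many, and no p is given.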
